A study of Mus musculus with 110 samples.

Results

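Synaptic vesicle and release genes were followed here in R6/2 mice, which model Huntington's disease through a transgene, and in NCAR mice of the same strain label. A list of 45 genes was matched by symbol to the count table, and all 45 were found among its 24056 genes. The list holds 3 synapsins, 14 synaptotagmins and Doc2 proteins, 7 vesicle membrane proteins, 7 SNAREs and complexins, 4 genes for Rab3 proteins and rabphilin, 7 active zone genes and 3 vesicular transporters. Every member passed the filter on low counts in all 7 fits, so no member is missing from any count. Raw counts of the members were above 0 in every IP library.

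The animals were given AAVs that act in a chosen cell type and deliver either a ZFP (zinc-finger protein), the repressor under study, or Delta, its control. Condition ND is NCAR with Delta, NZ is NCAR with ZFP, RD is R6/2 with Delta and RZ is R6/2 with ZFP. RNA bound to HA-tagged ribosomes was pulled down (IP), and RNA of the starting tissue (Input) was sequenced beside it in 3 of the 4 sets. The pulled-down cells are labelled astrocytes in the MG and n_ZFP_a_Rpl sets and neurons in the hSyn and n_ZFP_n_Rpl sets. Each condition has 4 libraries per set and fraction, except that the hSyn set has 5 ND and 3 RD libraries and the n_ZFP_a_Rpl set has 3 RD libraries, in both fractions, and that the MG set has no Input. The sources used here do not give the tissue, the age, the promoter of each virus, the cell type in which the ZFP was made, or whether a replicate is 1 animal or a pool. A p-value here sets a difference against the spread between these libraries. Whether that is the spread between animals is therefore not known. A transgenic line that carries a fragment of human huntingtin is a model of the disease, and the human transgene was not analysed here.

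Nerve terminals store transmitter in vesicles that are filled by transporters, held in reserve by synapsins, brought to the active zone by Rab3 and scaffold proteins, and made ready to fuse by RIM and Munc13 proteins. Fusion is driven by the SNARE proteins of the vesicle and of the plasma membrane, is held and helped by complexins, and is set off when calcium binds a synaptotagmin. In the striatum, the region known for early loss of transcripts in Huntington's disease, most neurons are GABAergic projection neurons, and glutamate is released there by the terminals of cortical and thalamic neurons, whose cell bodies lie elsewhere.

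RefSeq promoter sequences of build GRCm38.p6 were at hand for 32 of the 45 members. There was no entry for Syn3, Syt4, Syt5, Syt7, Syt12, Syt13, Syt17, Doc2a, Doc2b, Syngr3, Vamp2, Snap25 and Rims2. The 250 bases before the start of 4 members are printed because these genes stand for the patterns found between R6/2 and NCAR libraries. Syp was higher in all 4 IPs, Sv2c and Bsn were lower in all 4, and Syn1 passed the test in none. Capitals mark the left part of a REST site (TTCAGCACC) and a cAMP response element (CRE, TGACGTCA) in Syn1 and a GC box (GGGGCGGGG) in Syp. The windows lie at chrX:20920919-20921168 on the minus strand, chr13:96132578-96132827 on the minus strand, chr9:108190384-108190633 on the minus strand and chrX:7638330-7638579 on the plus strand.
Syn1: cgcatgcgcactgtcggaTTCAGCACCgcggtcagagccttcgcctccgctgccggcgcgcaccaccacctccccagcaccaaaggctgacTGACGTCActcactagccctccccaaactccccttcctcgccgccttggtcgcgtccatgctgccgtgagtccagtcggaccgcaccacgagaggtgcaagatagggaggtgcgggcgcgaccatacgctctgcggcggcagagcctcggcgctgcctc
Sv2c: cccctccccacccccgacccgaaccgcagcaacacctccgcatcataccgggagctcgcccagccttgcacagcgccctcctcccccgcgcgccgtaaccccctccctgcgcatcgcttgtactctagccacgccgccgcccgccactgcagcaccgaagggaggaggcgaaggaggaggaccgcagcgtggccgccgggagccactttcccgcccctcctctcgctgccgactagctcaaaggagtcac
Bsn: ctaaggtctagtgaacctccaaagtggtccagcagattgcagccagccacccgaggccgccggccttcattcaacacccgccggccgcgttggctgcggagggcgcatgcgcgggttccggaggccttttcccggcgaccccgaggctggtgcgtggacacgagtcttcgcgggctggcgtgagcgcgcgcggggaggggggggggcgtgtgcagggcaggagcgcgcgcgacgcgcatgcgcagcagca
Syp: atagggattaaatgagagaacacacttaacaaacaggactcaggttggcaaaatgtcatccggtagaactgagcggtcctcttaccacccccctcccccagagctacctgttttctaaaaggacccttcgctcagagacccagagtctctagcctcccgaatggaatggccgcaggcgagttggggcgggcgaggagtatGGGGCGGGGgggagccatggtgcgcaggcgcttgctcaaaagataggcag
Searches used both strands and the letters GGACAGC (the right part of a REST site), TGACGT (the short form of the CRE, which lies within a full CRE) and GCGTGGGCG (an EGR site) besides those above. Some genes have several windows, with 45 windows for the 32 members, and a gene was counted if any of its windows matched. The GC box was found for 11 of the 32 members (34.4%) and for 11.8% of 27025 genes with windows of the same length. Those 11 were Rab3a, Rab3b, Rims1, Rims3, Slc17a7, Sv2a, Syngr1, Syp, Syt6, Unc13a and Unc13c, a mix of genes that rose, fell or did neither between R6/2 and NCAR. TTCAGCACC was found for 1 member, Syn1 (3.12%), and for 0.348% of all genes. GGACAGC was found for Rph3a and Syt6 (6.25% against 6.14%) and the CRE for Syn1 (3.12% against 1.77%). TGACGT was found for Rab3a and Syn1 (6.25% against 7.29%) and the EGR site for Unc13a (3.12% against 0.622%). GC content, averaged over the windows of each gene, had a median of 61.2% for the members and 52.4% for all genes. A match only describes these letters.

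Libraries held 34.8 M to 72.6 M counts in the IPs and 26.4 M to 44.2 M in the Inputs. The members together took 0.903% to 1.24% of the counts in the astrocyte IPs, 1.22% to 1.95% in the neuron IPs and 0.964% to 1.56% in the Inputs. Levels are given as CPM, edgeR's counts per fixed number of library counts, after TMM scaling within a set and fraction, so they compare libraries of 1 IP, are only roughly comparable across IPs, and do not compare genes. The labelled cell types were checked with marker lists. All 15 astrocyte markers were higher in the IP than in the Input of the n_ZFP_a_Rpl set, and 13 of 15 were lower in that of the n_ZFP_n_Rpl set. In the hSyn set 4 of them were higher and 8 lower. All 12 pan-neuronal markers were higher in both neuron IPs, but so were 10 of 12 in the n_ZFP_a_Rpl IP, with 2 lower. The MG IP has no Input to compare with, and its astrocyte markers summed to 13774 to 37731 CPM. The share of reads from the ribosomal RNA gene Rn45s was 0.105% to 0.314% in the ND and 0.0409% to 0.0661% in the RD libraries of the MG IP, which do not overlap.

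Presynaptic transcripts were in every IP, astrocyte IPs included. In the hSyn set 40 of 45 members were higher in the IP than in the Input and 3 were lower, where 78.7% of all genes passed the test. The counts were the same in the n_ZFP_n_Rpl set, with 40 higher and 3 lower against 83.3% of all genes called. In the n_ZFP_a_Rpl set 29 were higher and 7 lower (84.9% of all genes called), a total slightly below that share. All these shares count calls in either direction, so they do not give the share of genes called higher. The members' median difference was 0.32 log2 units in the n_ZFP_a_Rpl, 0.54 in the hSyn and 0.55 in the n_ZFP_n_Rpl set. These fits did not treat same-numbered IP and Input libraries as pairs. With such pairs no called member lost its call. Rab3c, Stx1a and Synpr also passed as higher and Slc17a7 as lower in the n_ZFP_a_Rpl set (88.1% of all genes called). Slc17a6 was added as higher in the hSyn set (81.2%) and Syt17 in the n_ZFP_n_Rpl set (88.2%).

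In the neuron sets a synapsin, a Rab3 gene and a Rab3 partner, a scaffold, a transporter and a calcium sensor had the highest values. Syn1, which tethers vesicles in the reserve pool, had a log2 difference from the Input of 1.41 ± 0.05 in the hSyn set, followed by Rph3a at 1.07 ± 0.10 and the active zone scaffold Bsn at 1.01 ± 0.07. In the n_ZFP_n_Rpl set the highest were Rab3b at 0.90 ± 0.08, the GABA transporter Slc32a1 at 0.88 ± 0.06 and Syt2 at 0.85 ± 0.06. The same 3 members were lower in the IP in both neuron sets, namely the active zone organisers Rims1 and Rims2 and the priming factor Unc13c. Their differences were -0.44 ± 0.03 and -0.32 ± 0.06 for Rims1, -0.13 ± 0.03 and -0.25 ± 0.02 for Rims2 and -0.33 ± 0.06 and -0.34 ± 0.05 for Unc13c in the hSyn and n_ZFP_n_Rpl sets. These 3 were also the lowest members of the astrocyte set, at -0.91 ± 0.04 for Unc13c, -0.69 ± 0.02 for Rims2 and -0.67 ± 0.02 for Rims1. The other members lower in the astrocyte IP were Syt7, Doc2b, Syt6 and Cplx2, from -0.56 ± 0.03 to -0.14 ± 0.04. Its highest members were Syt17 at 0.95 ± 0.09, Rab3b at 0.91 ± 0.06 and Syt13 at 0.81 ± 0.06. Markers of other cells stood beside these values in the astrocyte IP: 9 of 9 interneuron markers were higher there than in the Input (median 1.54), projection neuron markers were split with 5 higher and 6 lower of 14, and 12 of 12 microglia markers were lower. Their part in the members' differences was not tested.

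**Figure D1:**
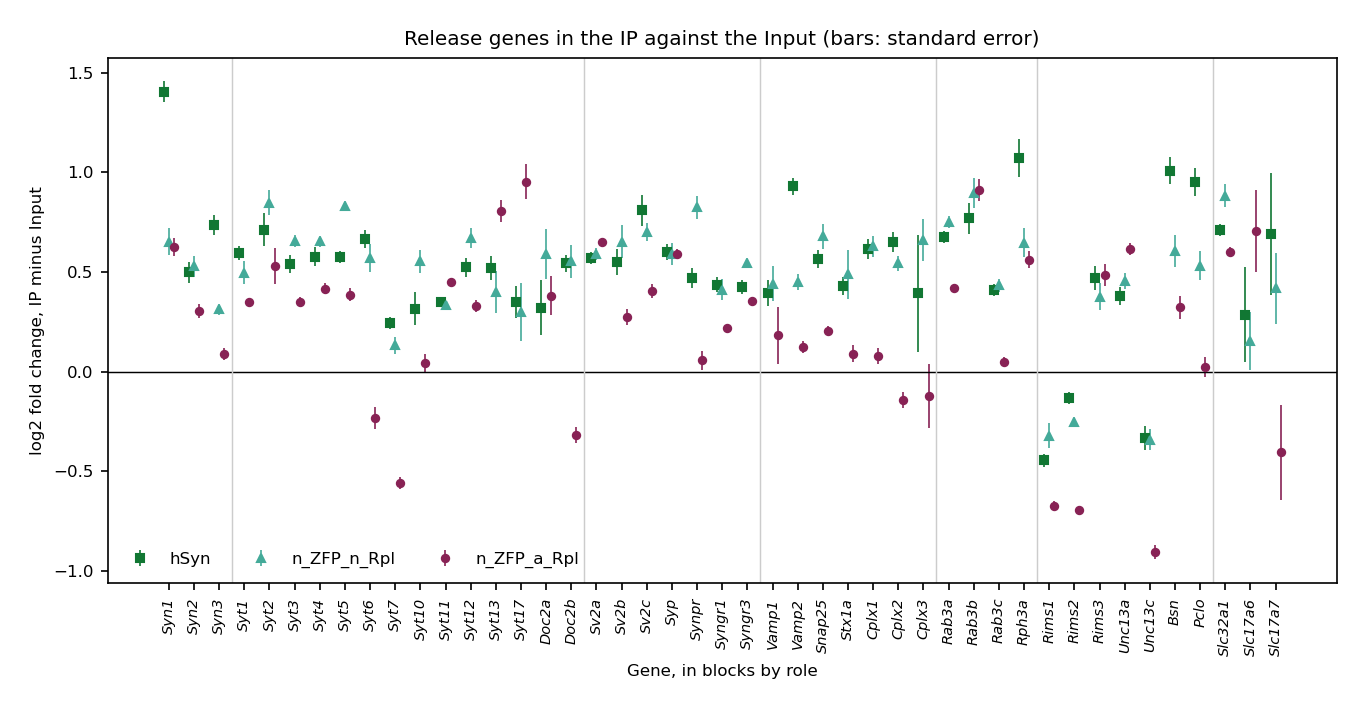
Log2 difference between IP and Input for each of the 45 members in the 3 sets that have both fractions, over all 4 conditions, with bars for the standard error. Most points lie above 0, and Rims1, Rims2 and Unc13c lie below it in every set.

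Between R6/2 and NCAR mice under the control virus (RD against ND), most members that moved fell, in astrocyte and neuron IPs alike. In the MG IP 24 members fell and 1 rose, where 33.5% of all genes were called and 16.2% were called lower. In the n_ZFP_a_Rpl IP 32 fell and 1 rose (45.3% of all genes called, 24.7% lower). In the hSyn IP 24 fell and 6 rose (51% called, 25.5% lower), and in the n_ZFP_n_Rpl IP 25 fell and 3 rose (51.4% called, 26.2% lower). The median log2 fold change of the members was -0.42, -0.51, -0.34 and -0.48 in that order, while the median of all genes was close to 0. These are bulk libraries, in which fewer cells of a type and less RNA per cell cannot be told apart.

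**Figure D2:**
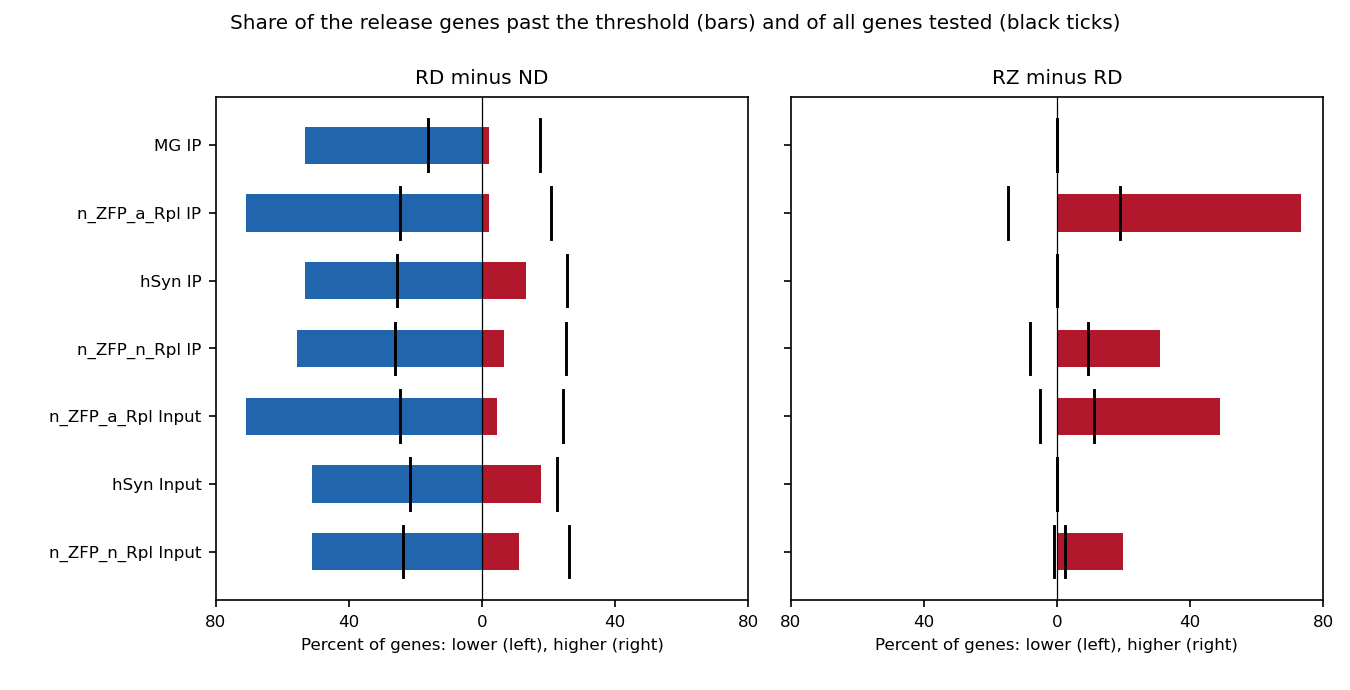
Percent of the 45 members called lower or higher in each fit for RD against ND and for RZ against RD (bars), with the percent of all tested genes called in that direction (black ticks). The bars for lower members between RD and ND stand above their ticks in all 7 fits.

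A core of 19 members fell in all 4 IPs, which is 42.2% of the list, against 11.2% of the 14728 genes tested in all 4. They are Syn3, Syt1, Syt2, Syt6, Syt7, Syt12, Doc2b, Sv2c, Synpr, Snap25, Cplx2, Rab3b, Rab3c, Rph3a, Rims1, Unc13a, Unc13c, Bsn and Pclo. Every role except the vesicular transporters is in that core. Only Syp rose in all 4 (2.22% of members against 8.83% of genes), and Syn1, Syt4, Syt11 and Slc17a7 passed the test in none (8.89% against 23.4%).

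**Figure D3:**
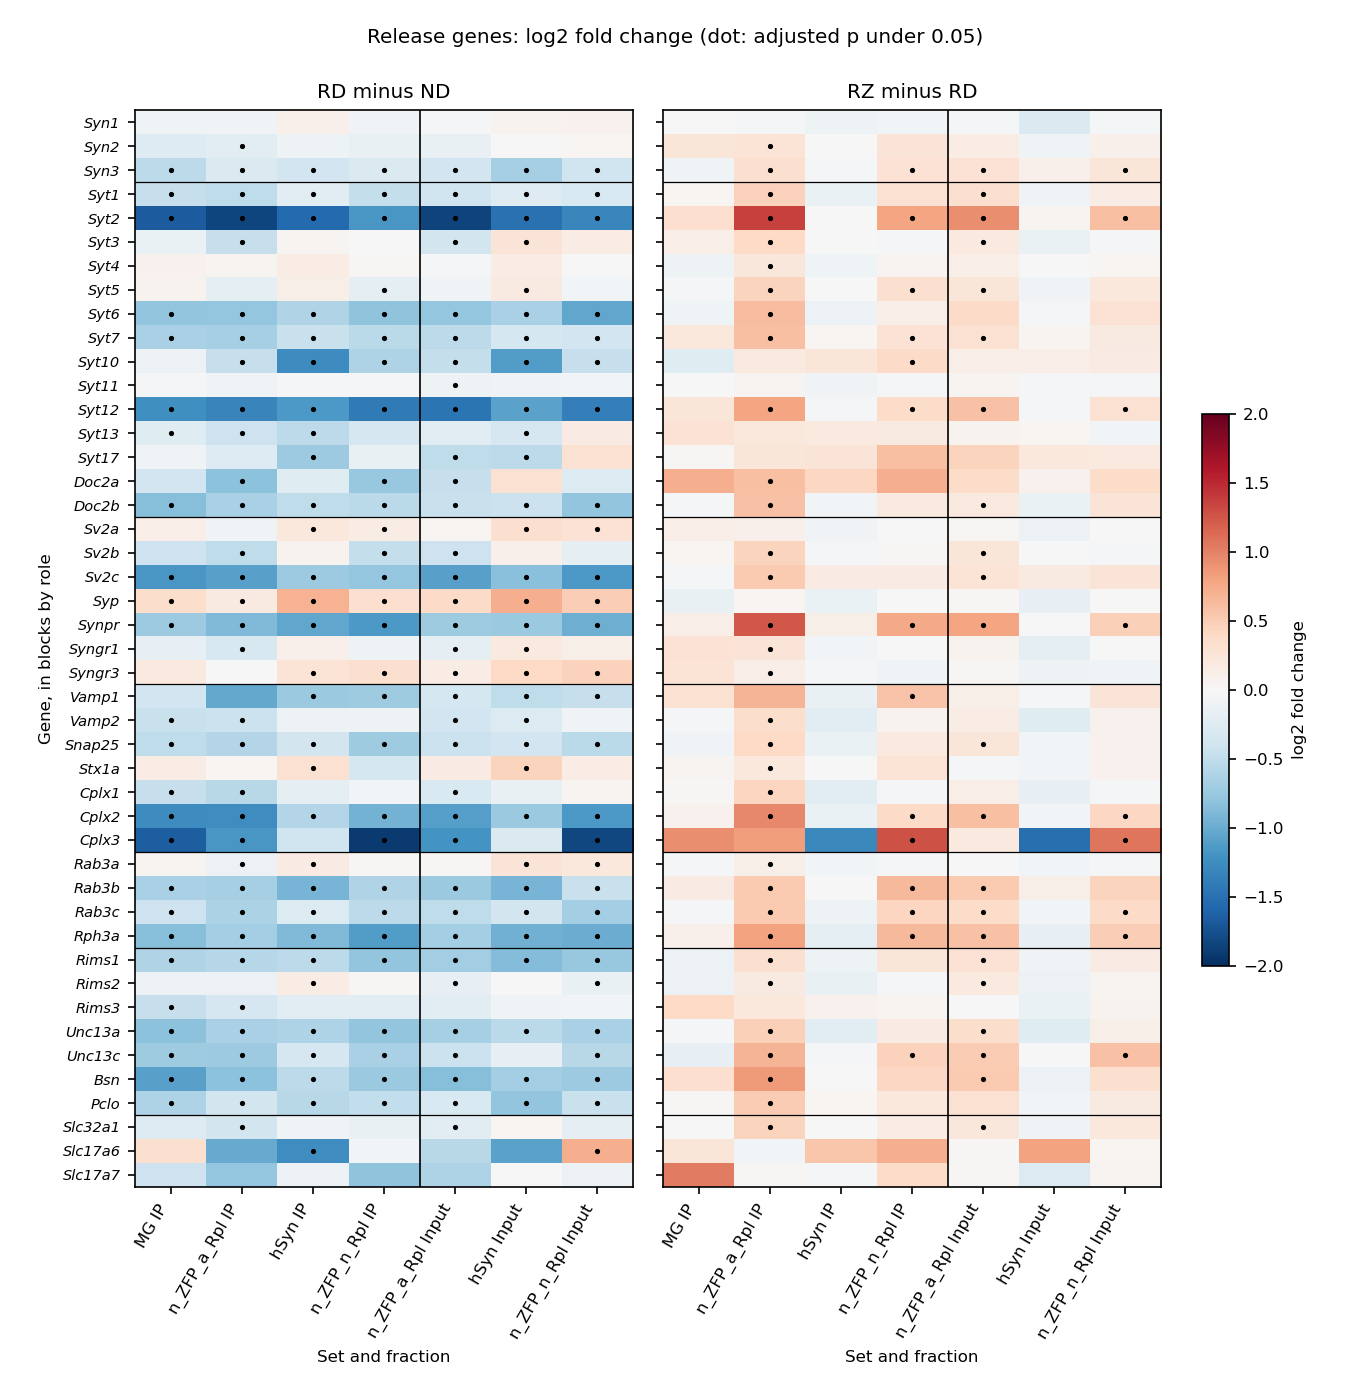
Log2 fold change of each of the 45 members for RD against ND and for RZ against RD in the 4 IPs and 3 Inputs, grouped by role, with a dot where the adjusted p is below 0.05. Blue and red blocks show that falls between RD and ND run through all roles, and that rises between RZ and RD lie in the fits of the n_ZFP_a_Rpl and n_ZFP_n_Rpl sets.

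Among the synapsins, which coat vesicles and hold them in reserve, only Syn3 moved in every IP. Its log2 fold changes were -0.53 ± 0.10, -0.29 ± 0.05, -0.38 ± 0.07 and -0.29 ± 0.05 in the MG, n_ZFP_a_Rpl, hSyn and n_ZFP_n_Rpl IPs, the order used for all sets of 4 values that follow. Syn1 read 130.2, 132, 136 and 139 CPM in the ND and 113, 123, 127 and 142 CPM in the RD libraries of the MG IP. In the hSyn IP it read 146, 146, 155, 157 and 176 CPM in ND and 152, 172 and 177 in RD. The groups overlapped in all 4 IPs, with fold changes of -0.09 ± 0.07, -0.07 ± 0.04, 0.10 ± 0.08 and -0.07 ± 0.15 (adjusted p 0.353, 0.222, 0.33 and 0.731). Syn2 fell in the n_ZFP_a_Rpl IP alone among the IPs, at -0.22 ± 0.07, and whether that fall differs from those of the other IPs (-0.25 ± 0.14, -0.10 ± 0.11 and -0.14 ± 0.10) was not tested.

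Of the 14 synaptotagmins and Doc2 proteins, 6 fell in all 4 IPs. Syt2 (chr1:134646534-134753149, GRCm38.p6), a fast calcium sensor of evoked release, had the lowest mean fold change of the role. It read 58.3, 65.9, 79.4 and 93 CPM in ND against 18.7, 20.4, 22.2 and 32.1 in RD in the MG IP. The values were 97.1, 109, 115 and 116 against 22.1, 25.8 and 43.5 in the n_ZFP_a_Rpl IP. Every RD library of both astrocyte IPs was below every ND library. The neuron IPs showed the same order, with 93.3, 93.3, 95.8, 103 and 108 CPM in ND against 32.8, 32.9 and 35 in RD in the hSyn IP. Syt2 read 77.9, 99.4, 102 and 105 against 35.4, 41, 44 and 50.4 in the n_ZFP_n_Rpl IP. No groups overlapped, and the fold changes were -1.67 ± 0.26, -1.84 ± 0.23, -1.56 ± 0.14 and -1.17 ± 0.11 (adjusted p 0.000214, 3.45e-05, 4.93e-07 and 9.1e-07).

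Syt12, a member of the family that does not bind calcium, also fell in all 4 IPs, with fold changes of -1.22 ± 0.12, -1.33 ± 0.07, -1.15 ± 0.08 and -1.41 ± 0.11. It read 48.7, 50.8, 51.4 and 53.3 CPM in ND and 19, 19.2, 23 and 26.5 in RD in the MG IP, and 78.3, 88, 88.8 and 92.6 against 29.2, 32.1, 34.2 and 35 in the n_ZFP_n_Rpl IP. The groups were apart in both. Syt6 fell at -0.78 ± 0.12, -0.78 ± 0.10, -0.60 ± 0.08 and -0.81 ± 0.12, and Syt7, a slow calcium sensor linked to asynchronous release, at -0.65 ± 0.12, -0.67 ± 0.06, -0.45 ± 0.07 and -0.54 ± 0.08. The fall of Syt1, the main fast sensor of forebrain neurons, was smaller, at -0.46 ± 0.07, -0.51 ± 0.04, -0.21 ± 0.06 and -0.48 ± 0.11. Doc2b, a calcium sensor of spontaneous release, fell at -0.85 ± 0.12, -0.64 ± 0.10, -0.51 ± 0.07 and -0.53 ± 0.17, while Doc2a passed the test in the n_ZFP_a_Rpl and n_ZFP_n_Rpl IPs, at -0.82 ± 0.21 and -0.75 ± 0.25. Syt10 fell in 3 IPs, at -0.47 ± 0.09, -1.25 ± 0.18 and -0.62 ± 0.12, and was at -0.12 ± 0.17 in the MG IP. Syt4 and Syt11, which lack full calcium binding, did not pass the test in any IP, with fold changes of 0.09 ± 0.10, 0.05 ± 0.06, 0.14 ± 0.07 and 0.02 ± 0.05 for Syt4 and -0.02 ± 0.05, -0.08 ± 0.03, -0.02 ± 0.04 and -0.02 ± 0.04 for Syt11. The MG IP had 301 to 344 CPM of Syt4 in its ND libraries and 283 to 392 in its RD libraries.

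The vesicle membrane proteins moved in opposite directions. Syp encodes synaptophysin, an abundant vesicle protein that binds synaptobrevin, and was higher in RD in all 4 IPs. It read 430.4, 457, 459.7, 515 and 536 CPM in ND and 735, 779 and 825 in RD in the hSyn IP. The n_ZFP_n_Rpl IP had 542, 587, 737 and 758 in ND and 784, 814, 827 and 871 in RD. RD libraries were above all ND libraries in both neuron IPs. The n_ZFP_a_Rpl IP had 532, 534, 545 and 551 CPM in ND and 598, 611 and 634 in RD, again apart. The MG IP had 529, 549, 610.4 and 668 in ND and 662, 733, 778 and 819 in RD, and the highest ND library lay above the lowest RD library. The fold changes were 0.34 ± 0.11, 0.18 ± 0.04, 0.70 ± 0.07 and 0.33 ± 0.09 (adjusted p 0.0239, 0.0013, 5.33e-07 and 0.00807). The call in the MG IP was lost without ND replicate 3 (0.30, adjusted p 0.0769), ND replicate 4 (0.31, 0.0683), RD replicate 2 (0.28, 0.074) or RD replicate 4 (0.32, 0.0513).

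Synpr (chr14:13284780-13615469) encodes synaptoporin, a close relative of synaptophysin, and went the other way. It read 189, 210.4, 215 and 233 CPM in ND and 108, 111 and 125 in RD in the n_ZFP_a_Rpl IP. The hSyn IP had 271, 274, 317, 321 and 336 against 147, 149 and 149, and the groups were apart in all 4 IPs. Its fold changes were -0.72 ± 0.17, -0.89 ± 0.10, -1.03 ± 0.09 and -1.14 ± 0.13. The family of SV2 glycoproteins was divided too. Sv2c, the form enriched in the basal ganglia, fell at -1.16 ± 0.14, -1.08 ± 0.07, -0.73 ± 0.15 and -0.77 ± 0.08, and its MG IP values were 226, 242, 255 and 260.1 CPM in ND and 73.3, 100.2, 127 and 139 in RD, with no overlap. Sv2a, the broadly expressed form, rose in the hSyn IP at 0.21 ± 0.06 and in the n_ZFP_n_Rpl IP at 0.15 ± 0.06. The second of these calls was lost without any of ND replicates 2, 3 and 4 or RD replicates 1, 2 and 4 (fold changes 0.11 to 0.16, adjusted p 0.0515 to 0.116). Syngr3, a synaptogyrin, rose in both neuron IPs, at 0.27 ± 0.05 and 0.31 ± 0.04, and Syngr1 fell in the n_ZFP_a_Rpl IP, at -0.32 ± 0.05.

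Of the SNAREs and complexins, Cplx2 (chr13:54301964-54383923) fell in all 4 IPs. Complexins clamp and promote the fusion of docked vesicles. Cplx2 read 877, 886, 938 and 998 CPM in ND and 329, 355, 409 and 447 in RD in the MG IP. The hSyn IP had 1305, 1319, 1360.2, 1405 and 1554 against 852, 943 and 972. RD was below ND in every library of all 4 IPs, with fold changes of -1.26 ± 0.14, -1.24 ± 0.09, -0.59 ± 0.08 and -0.95 ± 0.07. Snap25, a SNARE of the plasma membrane, fell at -0.50 ± 0.10, -0.59 ± 0.04, -0.37 ± 0.08 and -0.71 ± 0.12. Vamp2, the main SNARE of the vesicle, fell in both astrocyte IPs at -0.45 ± 0.07 and -0.43 ± 0.05 and was at -0.11 ± 0.06 and -0.10 ± 0.08 in the neuron IPs without passing the test. Cplx1 had the same pattern, with -0.46 ± 0.13 and -0.55 ± 0.10 in the astrocyte and -0.18 ± 0.09 and -0.06 ± 0.09 in the neuron IPs. Vamp1 fell in the neuron IPs at -0.74 ± 0.14 and -0.71 ± 0.16. Its value in the n_ZFP_a_Rpl IP was -1.03 ± 0.40 with adjusted p 0.054. Stx1a, the partner of Snap25 in the plasma membrane, rose in the hSyn IP at 0.30 ± 0.08 and was at 0.15 ± 0.18, 0.04 ± 0.06 and -0.35 ± 0.25 in the others without passing the test.

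Cplx3, a complexin of few cell types, was low in 3 of the IPs. Its levels were 0.726 to 8.43 CPM in the MG, 0.899 to 11.8 in the n_ZFP_a_Rpl and 0.47 to 6.69 in the hSyn IP over all conditions. Cplx3 in the n_ZFP_n_Rpl IP read 15.4, 17.4, 22.4 and 26.1 CPM in ND and 3.2, 5.68, 6.17 and 6.51 in RD, a wide gap between the groups. The fold change there was -1.92 ± 0.24 (adjusted p 1.3e-05), against -1.66 ± 0.60, -1.17 ± 0.43 and -0.40 ± 0.60 in the others, of which the first and the second passed the test.

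Rab3 proteins are the GTPases that bring vesicles to the release site, and rabphilin binds them. Rph3a, the rabphilin gene, read 146, 157, 163 and 174 CPM in ND and 79.1, 83.2, 91.2 and 102 in RD in the MG IP. It read 271, 274, 377 and 429 against 116, 155, 156 and 195 in the n_ZFP_n_Rpl IP. The groups were apart in all 4 IPs, with fold changes of -0.85 ± 0.10, -0.68 ± 0.07, -0.88 ± 0.19 and -1.12 ± 0.16. Rab3b fell at -0.64 ± 0.13, -0.66 ± 0.09, -0.94 ± 0.16 and -0.60 ± 0.14 and Rab3c at -0.42 ± 0.09, -0.64 ± 0.05, -0.27 ± 0.05 and -0.53 ± 0.07. Rab3a, the most studied form at central synapses, took both signs. It read 345, 357, 360.5 and 368 CPM in ND and 315, 319 and 349.9 in RD in the n_ZFP_a_Rpl IP, a fall of -0.12 ± 0.04 with overlapping groups. The hSyn IP had 377, 404, 421, 422 and 454 against 438, 469.6 and 494, a rise of 0.17 ± 0.06, also with overlap.

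The active zone is the patch of membrane where vesicles fuse, and 5 of its 7 genes fell in every IP. Bsn encodes bassoon, a giant scaffold protein. It read 304, 305, 309.6 and 338 CPM in ND and 129.7, 142, 159 and 162 in RD in the MG IP. The n_ZFP_n_Rpl IP had 652, 867, 1071 and 1139.8 in ND and 406, 514, 629 and 685 in RD. The groups were apart in the MG, n_ZFP_a_Rpl and hSyn IPs and overlapped in the n_ZFP_n_Rpl IP, where the ND libraries were spread widely. The fold changes were -1.08 ± 0.12, -0.81 ± 0.12, -0.53 ± 0.12 and -0.74 ± 0.19. Pclo, the gene of the related scaffold piccolo, fell at -0.62 ± 0.13, -0.37 ± 0.09, -0.56 ± 0.12 and -0.49 ± 0.17. The priming factors Unc13a and Unc13c fell at -0.81 ± 0.10, -0.65 ± 0.07, -0.62 ± 0.08 and -0.79 ± 0.10 and -0.71 ± 0.09, -0.72 ± 0.08, -0.34 ± 0.11 and -0.65 ± 0.09. Rims1, which links vesicles to calcium channels, fell at -0.60 ± 0.10, -0.57 ± 0.05, -0.53 ± 0.06 and -0.80 ± 0.15, while its relative Rims2 rose slightly in the hSyn IP at 0.15 ± 0.06 and was at -0.11 ± 0.08, -0.12 ± 0.05 and 0.02 ± 0.06 in the others. The hSyn IP had 232 to 261 CPM of Rims2 in its ND libraries and 248 to 287 in its RD libraries, which overlap. Rims3 fell in the astrocyte IPs, at -0.46 ± 0.09 and -0.34 ± 0.11.

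**Figure D4:**
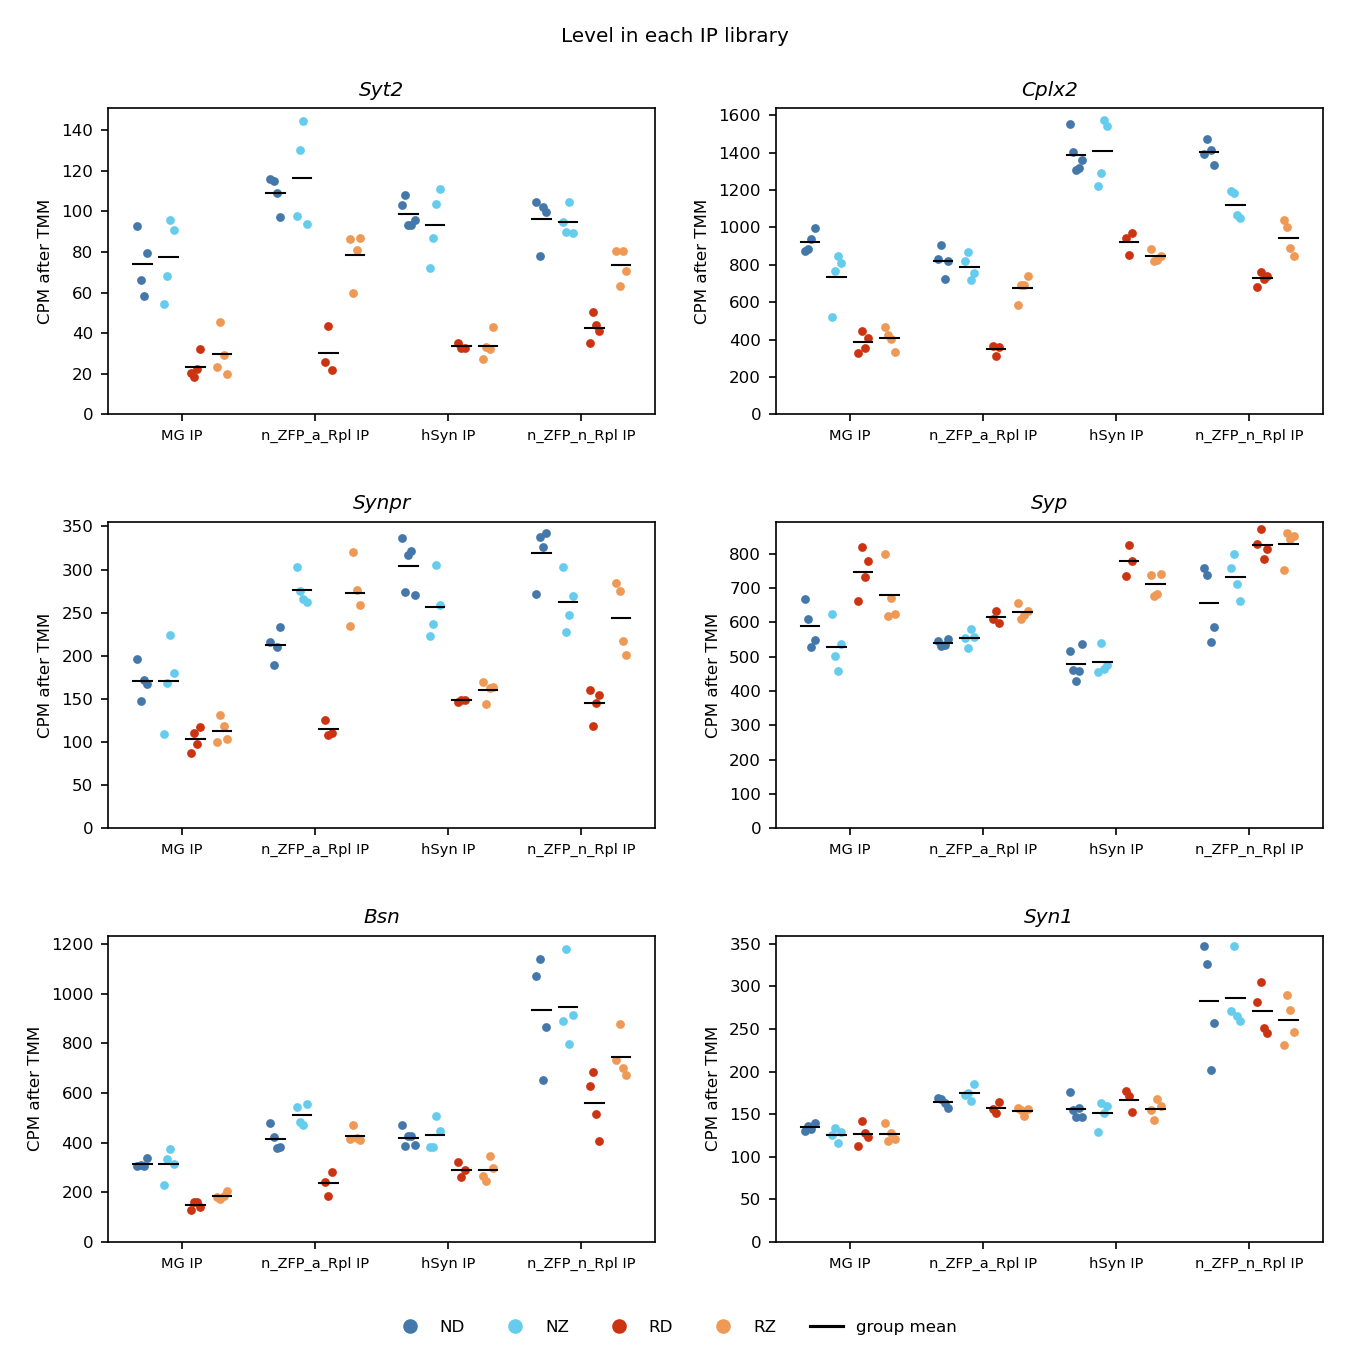
CPM of Syt2, Cplx2, Synpr, Syp, Bsn and Syn1 in every IP library by set and condition, with a bar at each group mean. Syt2, Cplx2 and Synpr are low in all RD groups, Syp is high in them, Syn1 overlaps between groups, and the RZ points of Syt2 rise above RD in the n_ZFP_a_Rpl and n_ZFP_n_Rpl IPs.

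The vesicular transporters decide which transmitter a vesicle carries. Slc32a1, which loads GABA and glycine, fell in the n_ZFP_a_Rpl IP at -0.37 ± 0.05 and read 267, 291, 293 and 299 CPM in ND against 217, 219.9 and 229 in RD, with no overlap. In the other IPs it was at -0.26 ± 0.11, -0.07 ± 0.06 and -0.15 ± 0.13 without passing the test. Slc17a7, the glutamate transporter typical of cortical neurons, ranged widely between libraries of 1 condition. It read 249.6, 389.8, 711 and 894 CPM in the ND and 181, 224, 400.1 and 478 in the RD libraries of the n_ZFP_n_Rpl IP. Over all conditions it was 181 to 894 CPM in that IP, 4.15 to 38.2 in the hSyn, 10.2 to 81.1 in the n_ZFP_a_Rpl and 12.9 to 115 in the MG IP. Cortical excitatory markers varied beside it. The 10 markers summed to 249.6 to 634 CPM in the ND and 212 to 415 in the RD libraries of the n_ZFP_n_Rpl IP, and to 131 to 217 in all hSyn IP libraries. Their part in the values of Slc17a7 was not tested. Slc17a6, the glutamate transporter typical of thalamic neurons, fell in the hSyn IP at -1.25 ± 0.49 (adjusted p 0.045) from 1.42, 2.55, 2.65, 2.82 and 6.07 CPM in ND to 1.22, 1.34 and 1.36 in RD, groups that come close and do not overlap.

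**Figure D5:**
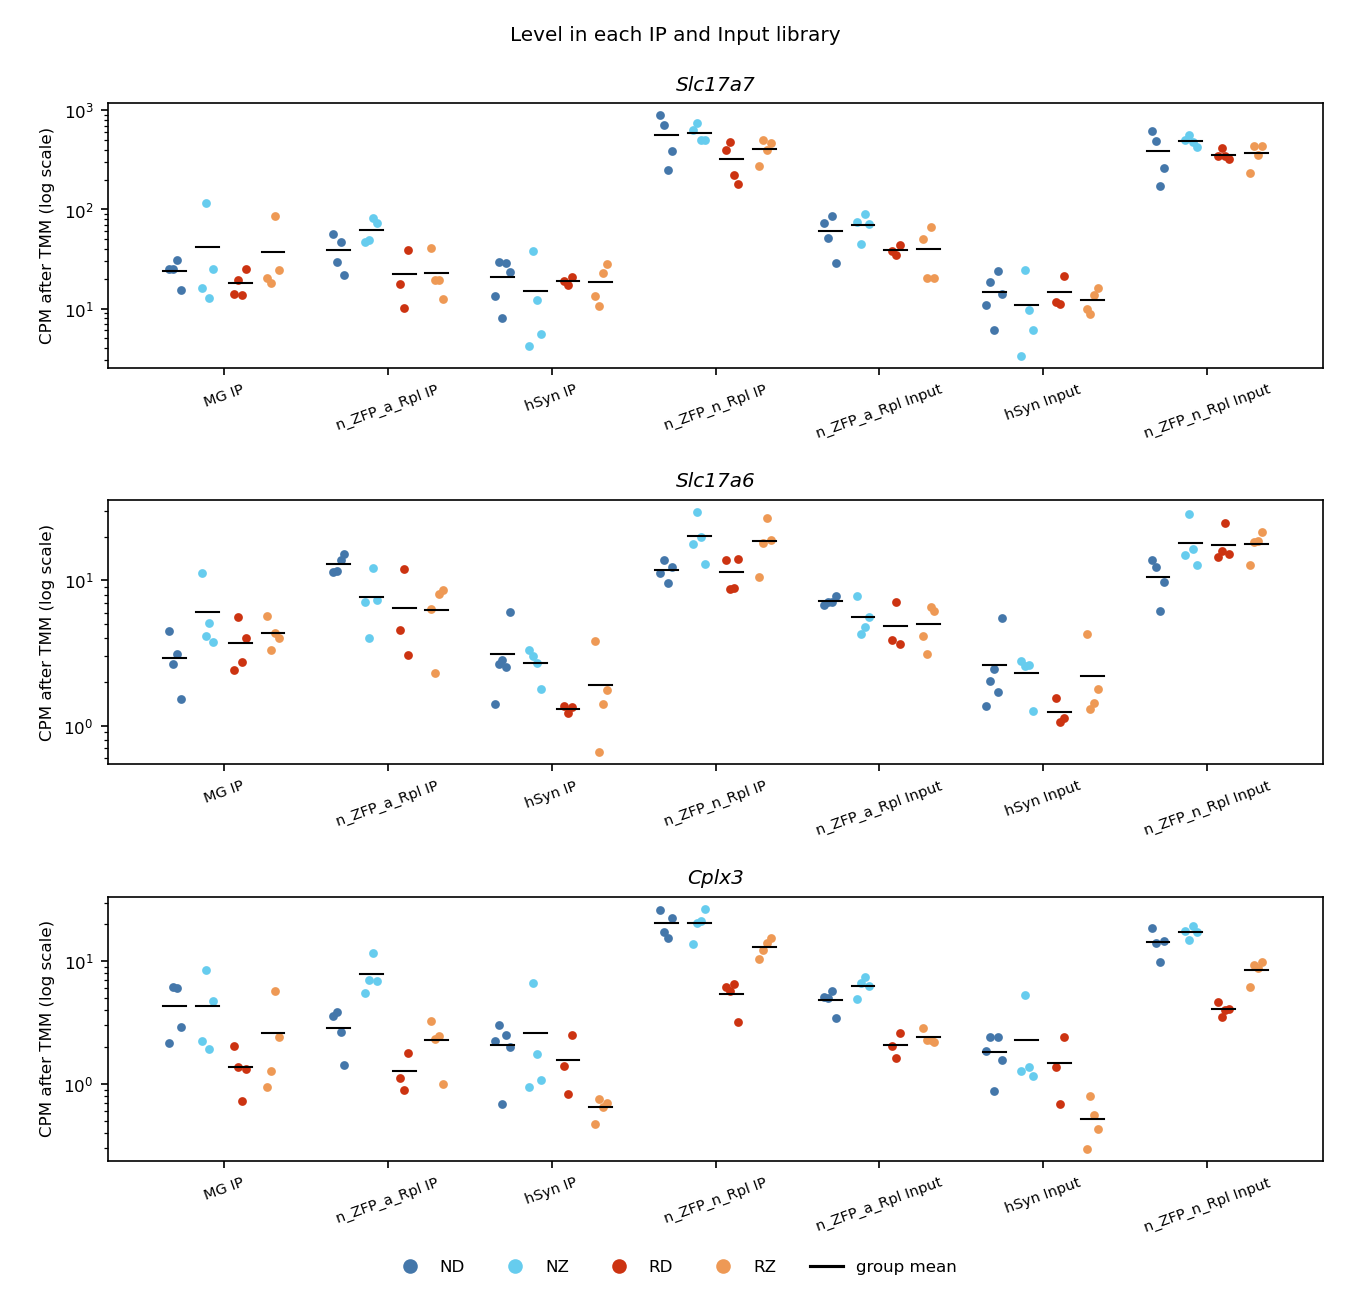
CPM (log axis) of Slc17a7, Slc17a6 and Cplx3 in each library of the 7 fits, by condition. Slc17a7 is higher in every library of the n_ZFP_n_Rpl set than in any library of the other sets, where it reaches at most 115 CPM, and libraries of 1 condition spread widely.

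Markers of cell types moved with these changes. Of 14 projection neuron markers tested, 13 fell in each of the 4 IPs, with medians of -1.73, -1.66, -1.40 and -1.58. Their summed level in the n_ZFP_a_Rpl IP was 10744 to 12581 CPM for ND against 2864 to 3833 for RD, and in the n_ZFP_n_Rpl IP 10804 to 16352 against 3949 to 5133. Interneuron markers fell in 5, 8, 9 and 8 of 9. Pan-neuronal markers were mixed, with 0 higher and 3 lower of 12 in the MG, 1 and 5 in the n_ZFP_a_Rpl, 3 and 6 in the hSyn and 2 and 6 in the n_ZFP_n_Rpl IP. Astrocyte markers fell in 14 of 15 in the hSyn IP, where their sum was 6249 to 8933 CPM in ND and 2984 to 3610.4 in RD, and in 11 of 15 in the n_ZFP_n_Rpl IP, with 1 higher. The part of these cell types in the members' changes was not tested.

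Members also fell more often than they rose in the tissue RNA. In the n_ZFP_a_Rpl Input 32 members fell and 2 rose (49.1% of all genes called), in the hSyn Input 23 fell and 8 rose (44.1%), and in the n_ZFP_n_Rpl Input 23 fell and 5 rose (49.8%). These shares count calls in either direction, so they do not give the share of genes called lower. The members' medians were -0.41, -0.30 and -0.27. Syt2 fell at -1.85 ± 0.12, -1.49 ± 0.19 and -1.31 ± 0.12 and Syt12 at -1.46 ± 0.06, -1.07 ± 0.11 and -1.37 ± 0.08, and Syp rose at 0.39 ± 0.05, 0.73 ± 0.08 and 0.49 ± 0.12. In the n_ZFP_n_Rpl Input Slc17a6 rose at 0.73 ± 0.29 (adjusted p 0.048), from 6.14, 9.77, 12.3 and 13.9 CPM in ND to 14.4, 15.1, 15.9 and 24.8 in RD. That call was lost without any of ND replicates 2, 3 and 4 or RD replicates 2, 3 and 4 (fold changes 0.52 to 0.81, adjusted p 0.0549 to 0.157).

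The change in the IP was then tested against the change in the Input of the same set. In the hSyn set 1 member passed, where 1.01% of all genes did. Rims1 fell less in the IP than in the Input, a difference of 0.39 ± 0.09 (adjusted p 0.0317). The call was lost with RLE factors (0.36, adjusted p 0.0551) and with no filter on low counts (0.29, adjusted p 0.171). Rims1 read 232, 267, 267, 279 and 287 CPM in ND and 141, 148 and 149.7 in RD in the Input, beside 135, 143, 158, 159.7 and 162 and 99.3, 105 and 111 in the IP. In the n_ZFP_a_Rpl set 0 members passed by edgeR (1.86% of all genes), with 1 higher and 2 lower at an unadjusted p under 0.05 and 0 by DESeq2. In the n_ZFP_n_Rpl set 0 passed as well (3.68%), with 1 higher and 5 lower unadjusted and 1 by DESeq2.

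With IP and Input libraries of the same number treated as pairs in a replicate block, 25 members passed in the n_ZFP_n_Rpl set, where 24% of all genes did. Of these, 3 had a higher change in the IP than in the Input, namely Sv2c at 0.33 ± 0.06, Cplx2 at 0.15 ± 0.04 and Rims2 at 0.12 ± 0.04. The other 22 had lower differences in the IP, among them Slc17a7 at -0.84 ± 0.20, Syt13 at -0.60 ± 0.10, Stx1a at -0.57 ± 0.10 and Doc2a at -0.55 ± 0.10. The paired fit gave 1 member in the n_ZFP_a_Rpl set, Unc13c at -0.25 ± 0.07 (5.74% of all genes), and kept Rims1 in the hSyn set at 0.31 ± 0.06 (3.57%).

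The neuron and astrocyte IPs were compared in 1 fit over all 63 IP libraries, as the mean change between RD and ND in the neuron IPs less that in the astrocyte IPs. Of the members, 10 had a higher and 1 a lower value in neurons, where 20.7% of all genes passed, 11.5% higher and 9.15% lower. The total of 11 members is close to that share. Among the higher members the largest differences were those of Cplx2 at 0.49 ± 0.10, Cplx1 at 0.39 ± 0.11 and Sv2c at 0.38 ± 0.12, followed by Vamp2 at 0.35 ± 0.07 and Syt3 at 0.34 ± 0.07. Cplx2 and Sv2c fell in all 4 IPs, and less in the neuron IPs. Syp at 0.26 ± 0.09, Syngr1 at 0.25 ± 0.08, Syngr3 at 0.20 ± 0.06, Sv2a at 0.16 ± 0.06 and Rims2 at 0.21 ± 0.07 were also higher. Syt10 was the lower one, at -0.63 ± 0.15. Of the 7 vesicle membrane genes, 5 are among the 10, a count picked after the values were seen, and roles were not tested. Each set holds IPs of 1 labelled cell type, so cell type and set cannot be told apart in this fit. Cell type markers moved in the same test, with 8 of 15 astrocyte markers lower and 0 higher (median -0.48), among them Gfap at -2.79 and Aqp4 at -1.35. Of 12 pan-neuronal markers, 4 were higher and 0 lower (median 0.12), namely Rbfox3, Stmn2, Thy1 and Eno2. Their part in the members' differences was not tested.

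The ZFP contrast in R6/2 mice (RZ against RD) uses the same RD libraries as the contrast above, so opposite signs in the 2 contrasts are not independent. In the n_ZFP_a_Rpl IP 33 of 45 members rose and 0 fell, where 33.8% of all genes were called and 19.1% were called higher. In the n_ZFP_n_Rpl IP 14 rose and 0 fell (17.4% called, 9.47% higher). The Inputs of the same sets had 22 higher and 0 lower (16.1% called, 11.1% higher) and 9 higher and 0 lower (3.32% called, 2.49% higher). The count for the n_ZFP_n_Rpl Input was 5 without RZ replicate 2.

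In the other sets no member passed the test. The MG IP had 0 of 45 by edgeR (0.0782% of all genes called, 0.013% higher and 0.0652% lower), with 6 higher and 0 lower at an unadjusted p under 0.05 and 3 members by DESeq2. Without RZ replicate 1 the edgeR count was 6. The hSyn IP had 0 (0.0391%, 0.00652% higher and 0.0326% lower), with 0 higher and 6 lower unadjusted and 0 by DESeq2, and the hSyn Input had 0 (0%), with 0 higher and 5 lower unadjusted and 0 by DESeq2. The lowest adjusted p of a member was 0.12 in the MG IP and 0.571 in the hSyn IP. Whether the change between RZ and RD differs between the sets was not tested.

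Syt2, the calcium sensor, had the highest rise in the n_ZFP_a_Rpl IP. It read 22.1, 25.8 and 43.5 CPM in RD and 59.7, 80.7, 86.4 and 87 in RZ in the n_ZFP_a_Rpl IP, a fold change of 1.37 ± 0.23 (adjusted p 0.000561). The n_ZFP_n_Rpl IP had 35.4, 41, 44 and 50.4 in RD and 63.1, 70.6, 80.3 and 80.4 in RZ, a change of 0.78 ± 0.11 (adjusted p 0.00037). Every RZ library of these sets was above every RD library. The RZ libraries of the MG IP read 19.8, 23.4, 29.4 and 45.6 CPM and those of the hSyn IP 27.3, 32, 33 and 43.2, and both groups overlapped with RD, at 0.34 ± 0.26 and 0.01 ± 0.14.

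Synpr, the synaptoporin gene, read 234, 259, 276 and 320.0 CPM in the RZ libraries of the n_ZFP_a_Rpl IP, against 108, 111 and 125 in RD, a rise of 1.25 ± 0.10 (adjusted p 3.54e-07). All RZ libraries were also above the ND libraries of that IP. The RZ libraries of the n_ZFP_n_Rpl IP read 200.5, 217, 275 and 285, against 119, 146, 154 and 161 in RD, a rise of 0.75 ± 0.13 (adjusted p 0.00113). Cplx2 read 314, 362 and 367 CPM in RD and 587, 693, 694 and 739 in RZ in the n_ZFP_a_Rpl IP, at 0.96 ± 0.09. The n_ZFP_n_Rpl IP had 679.7, 724, 741 and 764 against 848, 890.3, 1001 and 1041, at 0.38 ± 0.07, and there all RZ libraries lay between RD and ND. Cplx3 rose in the n_ZFP_n_Rpl IP from 3.2, 5.68, 6.17 and 6.51 CPM to 10.5, 12.3, 14 and 15.4, at 1.28 ± 0.24 (adjusted p 0.00245), with no overlap.

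By role, the n_ZFP_a_Rpl IP had 2 of 3 synapsins higher, 10 of 14 synaptotagmins and Doc2 proteins, 5 of 7 vesicle membrane proteins, 5 of 7 SNAREs and complexins, 4 of 4 Rab3 and rabphilin genes, 6 of 7 active zone genes and 1 of 3 transporters. The scaffold gene Bsn rose at 0.86 ± 0.12, Rph3a at 0.81 ± 0.07, Syt12 at 0.79 ± 0.06 and the GABA transporter Slc32a1 at 0.44 ± 0.05. The 12 members that did not pass were Syn1, Syt10, Syt11, Syt13, Syt17, Sv2a, Syp, Vamp1, Cplx3, Rims3, Slc17a6 and Slc17a7. Syp, the only member higher in RD in all 4 IPs, read 609, 622, 634 and 657 CPM in RZ beside 598, 611 and 634 in RD, a change of 0.04 ± 0.04. The 14 members that rose in the n_ZFP_n_Rpl IP were Syn3, Syt2, Syt5, Syt7, Syt10, Syt12, Synpr, Vamp1, Cplx2, Cplx3, Rab3b, Rab3c, Rph3a and Unc13c. Among them Rph3a rose at 0.65 ± 0.16, Rab3b at 0.64 ± 0.14 and Unc13c at 0.46 ± 0.09. Snap25 and Bsn were at 0.20 ± 0.12 and 0.42 ± 0.18 there without passing the test.

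Projection neuron markers moved beside the members here too. In the n_ZFP_a_Rpl IP 14 of 14 rose (median 1.19), with sums of 2864 to 3833 CPM in RD and 7993 to 9186 in RZ. In the n_ZFP_n_Rpl IP 10 of 14 rose (median 0.65), from 3949 to 5133 to 5925 to 9463. Astrocyte markers fell in 14 of 15 in the n_ZFP_a_Rpl IP (median -0.34), and their sum was 16099.5 to 17389 in RD and 13175 to 14304 in RZ. Their part in the members' changes was not tested.

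The levels in treated R6/2 mice were also set against ND, with RZ and ND libraries that the contrasts above share. In the n_ZFP_a_Rpl IP 6 members were lower and 6 higher (24.4% of all genes called, 13.1% lower). Both the total and the count of lower members are close to these shares. The lower ones were Syt10, Syt12, Sv2c, Snap25, Cplx2 and Rims1, led by Sv2c at -0.55 ± 0.06, Syt12 at -0.54 ± 0.06 and Syt10 at -0.28 ± 0.08. The call of Syt10 was lost without ND replicates 1 or 4 or RZ replicates 2 or 4 (fold changes -0.27 to -0.20, adjusted p 0.0568 to 0.0739). The higher ones were Syt4, Syt5, Syp, Synpr, Syngr3 and Stx1a, led by Synpr at 0.36 ± 0.09, Syt4 at 0.27 ± 0.06 and Syt5 at 0.26 ± 0.08. In the n_ZFP_n_Rpl IP 13 were lower and 4 higher (31.3% called, 16.5% lower), among the lower Syt12 at -1.04 ± 0.11, Syt6 at -0.67 ± 0.12 and Cplx3 at -0.64 ± 0.23. That call of Cplx3 was lost without ND replicates 1 or 4 or any RZ replicate (fold changes -0.73 to -0.50, adjusted p 0.0503 to 0.133). The count of 17 was 10 without RZ replicate 3 and 11 without RZ replicate 4. Its higher members were Syp at 0.33 ± 0.09, Syngr3 at 0.22 ± 0.04, Sv2a at 0.16 ± 0.06 and Syt5. Sv2a was lost there without ND replicates 2, 3 or 4 or RZ replicates 2, 3 or 4 (fold changes 0.12 to 0.17, adjusted p 0.0665 to 0.135). In the MG IP 22 were lower and 2 higher (37% called, 17.6% lower), from Syt2 at -1.32 ± 0.26, Sv2c at -1.20 ± 0.14 and Cplx2 at -1.18 ± 0.14 to Sv2a at 0.27 ± 0.06 and Syngr3 at 0.48 ± 0.09. In the hSyn IP 26 were lower and 4 higher (51.2% called, 25.4% lower), from Syt2 at -1.54 ± 0.13, Syt12 at -1.19 ± 0.07 and Rph3a at -1.08 ± 0.17 to Syngr3 at 0.25 ± 0.05, Stx1a at 0.29 ± 0.08 and Syp at 0.57 ± 0.07.

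In NCAR mice 0 to 6 members per IP passed the test between ZFP and Delta (NZ against ND). The totals in the MG and n_ZFP_a_Rpl IPs are close to the shares of all genes given with them. In the MG IP 2 rose and 1 fell (7.05% of all genes called, 3.68% higher and 3.36% lower), Syt17 at 0.58 ± 0.15, Syt13 at 0.33 ± 0.08 and Syn3 at -0.34 ± 0.10. That count of 3 was 0 without any 1 of the ND libraries, NZ replicate 3 or NZ replicate 5, and 5 without NZ replicate 4. It was 9 by DESeq2, 7 with only the 2 groups compared and 0 with the replicate block. In the n_ZFP_a_Rpl IP 1 rose and 0 fell (2.07%, 1.2% higher and 0.872% lower), Synpr at 0.38 ± 0.09 (adjusted p 0.0347), from 189, 210.4, 215 and 233 CPM in ND to 263, 265, 275 and 303 in NZ, with no overlap. It was lost without ND replicates 1, 2 or 3 or NZ replicates 1, 2 or 4 (fold changes 0.33 to 0.41, adjusted p 0.0667 to 0.0996). DESeq2 called 4 members in that IP. The n_ZFP_n_Rpl IP had 6 members that fell (7.36%, 4.5% lower), Syt6 at -0.52 ± 0.12, Syt12 at -0.49 ± 0.11, Unc13c at -0.45 ± 0.09, Sv2c at -0.32 ± 0.08, Cplx2 at -0.32 ± 0.07 and Syt3 at -0.16 ± 0.05. The count was 3 without ND replicate 3, ND replicate 4 or NZ replicate 2, and Syt6 was lost without ND replicates 3 or 4 or NZ replicates 2 or 3 (fold changes -0.52 to -0.41, adjusted p 0.0543 to 0.0675). With only the 2 groups compared the count of 6 was 2, and with the level of cortical markers as a covariate, chosen after the data were seen, 11. In the hSyn IP 0 passed by edgeR (0.0261%), with 1 lower unadjusted and 0 by DESeq2.

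The test of whether the ZFP acted differently in R6/2 and NCAR mice (RZ minus RD, less NZ minus ND) gave 25 members higher and 0 lower in the n_ZFP_a_Rpl IP, where 16.5% of all genes were called, 11.4% higher and 5.07% lower. Syt2 at 1.27 ± 0.30, Cplx2 at 1.01 ± 0.12 and Syt12 at 0.96 ± 0.09 had the highest values. In the n_ZFP_n_Rpl IP 12 were higher and 0 lower (13.1%, 8.47% higher and 4.68% lower), led by Cplx3 at 1.26 ± 0.33, Synpr at 1.04 ± 0.18 and Unc13c at 0.91 ± 0.13. In that IP Unc13c, Syt12 and Cplx2 passed the test both as lower in NZ than in ND and as higher in RZ than in RD. Syt6 and Sv2c, also among the 12, passed as lower in NZ than in ND, at -0.52 ± 0.12 and -0.32 ± 0.08. Neither passed the test between RZ and RD. Projection neuron markers moved with the members, with 13 of 14 higher in the n_ZFP_a_Rpl IP (median 1.13) and 11 of 14 in the n_ZFP_n_Rpl IP (median 1.15). Interneuron markers were higher in 4 of 9 and 7 of 9, and no marker of either list was lower. The part of these cell types in the members' values was not tested. In the MG IP 0 members passed by edgeR (0% of all genes), with 3 higher and 1 lower unadjusted and 0 by DESeq2, and in the hSyn IP 0 did (0%), with 1 higher and 1 lower unadjusted and 0 by DESeq2.

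Other genes of the vesicle cycle were counted from 3 lists, to be read against the share of all genes called, which was 16.2%, 24.7%, 25.5% and 26.2% lower and 17.4%, 20.6%, 25.4% and 25.2% higher between RD and ND. Of 32 further genes of release, 16 fell and 3 rose between RD and ND in the MG IP, 24 and 2 in the n_ZFP_a_Rpl, 13 and 3 in the hSyn and 17 and 2 in the n_ZFP_n_Rpl IP. Slc18a3, the vesicular acetylcholine transporter, fell at -1.03 ± 0.17, -1.10 ± 0.11, -1.47 ± 0.19 and -1.58 ± 0.21. Unc13b, another priming factor, rose at 0.48 ± 0.12 in the MG, 0.77 ± 0.09 in the n_ZFP_a_Rpl and 0.39 ± 0.12 in the hSyn IP, where Unc13a fell. Of 22 endocytosis genes, which retrieve vesicle membrane after fusion, 4, 10, 8 and 7 fell and 0, 0, 3 and 2 rose, with medians of -0.04, -0.08, -0.02 and -0.10. The falls in the MG and n_ZFP_n_Rpl IPs are near the share of all genes. Pacsin1, which bends membrane during retrieval, fell at -0.52 ± 0.07, -0.65 ± 0.06, -0.47 ± 0.07 and -0.45 ± 0.06. The proton pump, which acidifies vesicles and lysosomes in all cells, went the other way in 2 IPs. Of its 16 genes 7 rose and 0 fell in the MG IP and 11 rose and 1 fell in the hSyn IP, with 4 and 3 in the n_ZFP_a_Rpl and 3 and 2 in the n_ZFP_n_Rpl IP. Atp6ap1, an accessory subunit, rose at 0.42 ± 0.05, 0.28 ± 0.04, 0.58 ± 0.04 and 0.36 ± 0.04. Between RZ and RD, where 19.1% of all genes were higher and 14.7% lower in the n_ZFP_a_Rpl and 9.47% and 7.95% in the n_ZFP_n_Rpl IP, 21 of the 32 release genes rose and 1 fell in the n_ZFP_a_Rpl IP, and 9 rose and 0 fell in the n_ZFP_n_Rpl IP, with Slc18a3 at 1.01 ± 0.11 and 0.91 ± 0.21. Endocytosis genes had 7 higher and 1 lower in the first and 1 higher and 2 lower in the second, and proton pump genes 2 and 2 and 0 and 1.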

How the data were processed

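The 110 libraries were analysed from 1 deposited table of read counts per gene symbol. The authors used STAR, HTSeq and build mm10, per the submitters' processing notes, and their versions and options, strand included, were not given in the sources used here. Libraries were made with a TruSeq kit, per the labels' protocols. Without a stated strand setting, reads of overlapping or antisense genes cannot be told apart from those of a member. Of the table's 24060 lines, 4 that repeat a symbol were dropped. Depth ran from 26.4 M to 72.6 M counts per library, and no 2 libraries of a set and fraction were copies (lowest chi-square per degree of freedom 5.39).

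Counts were fitted with edgeR 4.0.16 in R 4.3.3 for each set and fraction, with all 4 conditions in 1 model, filterByExpr (minimum count 10, minimum total 15), TMM scaling, robust quasi-likelihood tests and Benjamini-Hochberg adjustment over all genes tested, with a threshold of 0.05. IP and Input of a set were fitted together for comparisons between them, and the 4 IPs together for neurons against astrocytes. Values after ± are standard errors of log2 fold changes. Each model was tested on simulated counts. Alternatives were DESeq2 1.42.0, RLE factors, no filter, a replicate block, only the 2 groups compared, each library left out in turn and, chosen after the data were seen, the level of cortical markers as a covariate.

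Same-numbered libraries of different conditions did not deviate together (correlations -0.359 to 0.312), so they were not treated as pairs. Same-numbered IP and Input libraries of a condition did so in the n_ZFP_a_Rpl set (0.296 to 0.5 over 15 pairs) and in the n_ZFP_n_Rpl set (0.367 to 0.595 over 16 pairs), and not in every pair of the hSyn set (-0.142 to 0.545 over 14 pairs). The labels do not state these pairs, which were read from the data.

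The members, lists and tests were chosen with earlier results of these data known. In each comparison the 3 highest and 3 lowest members past the threshold were named if their mean was at least 5 CPM, and in each role the members with the highest and the lowest mean fold change between RD and ND over the 4 IPs were given by level. Up to 2 genes per direction were named from each list of other vesicle genes. Members given beyond this rule were chosen after their values were seen.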

Additional observations from a re-analysis of the deposited data

Results flagged for a closer look

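Single libraries stood apart from the others of their group for some members, in 10 of 196 groups tested over 14 members, where chance alone would single out about 1 in 20 groups. In the MG IP Slc17a7 read 114.9 CPM in NZ replicate 3, against 12.9 to 24.9 in the other NZ libraries, and 85.4 in RZ replicate 3, against 18.1 to 24.3. Bsn read 338 CPM in ND replicate 4 of that IP, against 304 to 310.1 in the others, and Rab3a read 299.9 in RZ replicate 4, against 332 to 339. In the hSyn IP Cplx3 read 6.69 CPM in NZ replicate 2, against 0.94 to 1.76, and Slc32a1 read 269 in NZ replicate 3, against 281 to 284. Bsn read 472 CPM in RZ replicate 2 of the n_ZFP_a_Rpl IP, against 410.2 to 419. In the n_ZFP_n_Rpl IP Syn1 read 347 CPM in NZ replicate 2, against 259 to 271, Syn3 read 84.8 in ND replicate 2, against 74.6 to 74.8, and Syp read 753 in RZ replicate 1, against 843 to 859.

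Effects differed between groups by a test of the difference itself in 4 comparisons. The change from RD to RZ differed from that from ND to NZ for 25 members in the n_ZFP_a_Rpl IP (16.5% of all genes) and for 12 members in the n_ZFP_n_Rpl IP (13.1%). IP and Input changed unequally from ND to RD for 1 member of the hSyn set, Rims1, in the fit without pairs. With same-numbered IP and Input libraries as pairs, the numbers were 1 in the n_ZFP_a_Rpl set (Unc13c), 25 in the n_ZFP_n_Rpl set and 1 in the hSyn set (Rims1). Neuron and astrocyte IPs changed unequally from ND to RD for 11 of 45 members, close to the 20.7% of all genes that passed that test.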

How the results depend on the processing

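No result changed direction under any alternative run. Counts of members past the threshold moved by over 1.5 times as follows. DESeq2 called 3 members for RZ against RD in the MG IP, 9 for NZ against ND in the MG IP, 4 for NZ against ND in the n_ZFP_a_Rpl IP and 1 for the IP less Input test of the n_ZFP_n_Rpl set. With only the 2 groups compared, NZ against ND gave 7 in the MG IP and 2 in the n_ZFP_n_Rpl IP, and RZ against ND gave 10 in the n_ZFP_n_Rpl IP. With the cortical marker level as a covariate, chosen after the data were seen, the n_ZFP_n_Rpl set gave 11 for NZ against ND, 21 for the interaction and 14 for RZ against RD in the Input. RLE factors and no filter each gave 0 for the IP less Input test of the hSyn set. The replicate block gave 0 for NZ against ND in the MG IP, 1 for the IP less Input test of the n_ZFP_a_Rpl set and 25 for that of the n_ZFP_n_Rpl set, and changed no other count by over 1.5 times.

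With each library left out in turn, the counts ran from 0 to 5 for NZ against ND and 0 to 6 for RZ against RD in the MG IP, 0 to 1 for NZ against ND in the n_ZFP_a_Rpl IP, 3 to 7 for NZ against ND and 10 to 16 for RZ against ND in the n_ZFP_n_Rpl IP, and 5 to 8 for RZ against RD in the n_ZFP_n_Rpl Input. For RD against ND they were 22 to 24 in the MG, 29 to 35 in the n_ZFP_a_Rpl, 26 to 29 in the hSyn and 24 to 29 in the n_ZFP_n_Rpl IP, and for RZ against RD 30 to 32 in the n_ZFP_a_Rpl and 10 to 14 in the n_ZFP_n_Rpl IP. The cause of these shifts was not tested.

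Of the values of single members under the alternatives other than the covariate, 1141 kept their direction and their side of the threshold and 82 kept their direction only. Under the covariate these numbers were 84 and 1. Cplx3, Slc17a6 and Doc2a, which had low levels in the MG, n_ZFP_a_Rpl and hSyn IPs, had standard errors among the largest. So did Slc17a7 at a higher level, with 0.52 for its interaction in the n_ZFP_n_Rpl IP at a mean of 473 CPM. The part of low counts in these errors was not tested.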
